A study of Bos taurus with 24 samples.

Results

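The adrenal gland of the in utero cooled calf was followed from birth (day 0) to weaning (day 63) by bulk RNA sequencing. The data are the count tables of the 12 of 24 female calves whose treatment is labelled in utero cooled (IUCL), 6 whose glands were collected at each age, so every calf was measured once. The other 12 calves were heat-stressed in utero (IUHS), again 6 at birth and 6 at weaning. Cooling before birth is thus shared by both groups compared here, and the groups differ in age alone as far as the labels tell. Each value is the number of reads assigned to an Ensembl bovine gene ID, and total counts of the cooled calves ranged from 12810096 to 19012206.

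The adrenal gland has a cortex, which makes steroid hormones, around a medulla of chromaffin cells, which release catecholamines. Glucocorticoids from the cortex help to mature the fetus for birth, and in mammals the gland goes on to be remodelled after birth as its zones and its medulla take their postnatal form. Weaning follows this early postnatal growth and is itself a stressor that engages the gland. The files do not pair the gene IDs with names or positions, and no ID was matched to a gene, so the labelled tissue was not checked against marker genes. Changes are therefore described over IDs by their size, read level and separation of the ages, with 4 IDs given in full.

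Between birth and weaning, 876 IDs rose and 1000 fell in the cooled calves, 5.58% and 6.37% of the 15693 IDs tested (edgeR's quasi-likelihood test, Benjamini-Hochberg adjusted p under 0.05). The p-values rest on an estimate per ID of the spread between calves within groups, drawn from all 24 calves, the heat-stressed ones included. The median rise was 1.79-fold and the median fall was also 1.79-fold, and the middle range of the changes, from the 25th to the 75th percentile, was 0.51 to 1.46 on the log2 scale for rises and 0.56 to 1.48 for falls. In whole tissue, fewer cells of a type and less RNA per cell cannot be told apart. Over all tested IDs the median absolute change was 0.25 on the log2 scale, with a median standard error (SE) of 0.20.

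The change was bounded closely for much of the tested transcriptome. For 67.9% of the tested IDs the 95% interval of the change lay within 2-fold in either direction, and for 40.6% it lay within 1.5-fold. For 18.2% the interval held both no change and a change beyond 2-fold and so left both possible.

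By size, 291 of the rises were under 1.5-fold and 214 were 1.5- to 2-fold. A further 244 were 2- to 4-fold, 91 were 4- to 8-fold and 36 were at least 8-fold. Among the falls, 275 were under 1.5-fold, 318 were 1.5- to 2-fold, 281 were 2- to 4-fold, 110 were 4- to 8-fold and 16 were at least 8-fold. The direction with more IDs thus differed along the scale: falls outnumbered rises from 1.5- to 8-fold, and rises outnumbered falls at both ends.

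A stricter test asks whether a change lies beyond 2-fold, not only whether there is a change. edgeR's test against a 2-fold threshold (glmTreat) called 59 IDs higher (0.376% of those tested) and 60 lower (0.382%), far fewer than the fitted changes of at least 2-fold. These counts depended on the tool, with 11 and 1 in limma-voom, and on single calves. The higher count went to 33 without calf 2, 30 without calf 6, 37 without calf 15 and 29 without calf 19, and the lower count went to 23 without calf 2, 15 without calf 6, 24 without calf 13, 26 without calf 19, and 37 without calf 20 or calf 22.

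**Figure D1:**
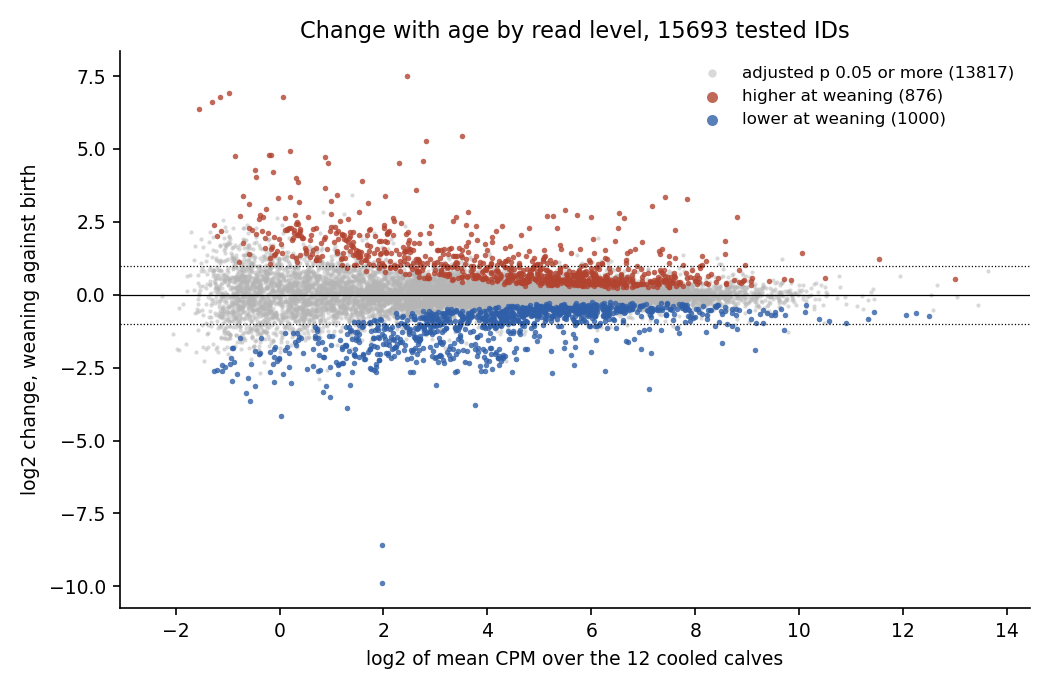
Each point is 1 of the 15693 tested IDs in the cooled calves: mean TMM-scaled read level (CPM) over the 12 libraries on a log2 axis against the log2 change from birth to weaning, with dotted lines at 2-fold. The 876 rises and 1000 falls are spread over the whole range of read levels, and the largest fitted changes lie at low levels.

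CPM are reads of an ID per 1000000 reads of its library, scaled by TMM, edgeR's correction for library composition. The unit is not corrected for gene length, so a level says how many reads stand behind an ID and does not rank genes by number of transcripts. Tested IDs were divided by mean CPM into 10 parts of nearly equal number. The part with the fewest reads, up to 1.26 CPM, had the smallest share called, 6.69%. In the other parts the share ran from 10.1% to 15.04%, with its highest value in the third part (3.45 to 7.56 CPM). IDs that changed with age were therefore found at every level, and the share did not climb steadily with reads.

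The balance between directions shifted with read level. In the third part and the next 2, from 3.45 to 21.96 CPM, 138, 130 and 126 IDs fell against 98, 77 and 68 that rose, so rises made up 41.5%, 37.2% and 35.05% of the calls. In the parts below, rises were the larger number, with 62 against 43 in the lowest and 102 against 84 in the second. From the seventh part upward the directions were close, with rises making up 47.6% to 53.1% of the calls.

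The size of a called change followed the precision that the reads gave. Its median was 2.25 on the log2 scale in the lowest part and 0.56 in the highest, above 137 CPM, while the median SE of all tested IDs in those parts was 0.58 and 0.14. The smallest change called in the lowest part was 1.05, and in the highest it was 0.26. Changes under 2-fold were thus absent from the calls in the lowest part and made up most of the calls in the highest, where 15.6% were of at least 2-fold.

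**Figure D2:**
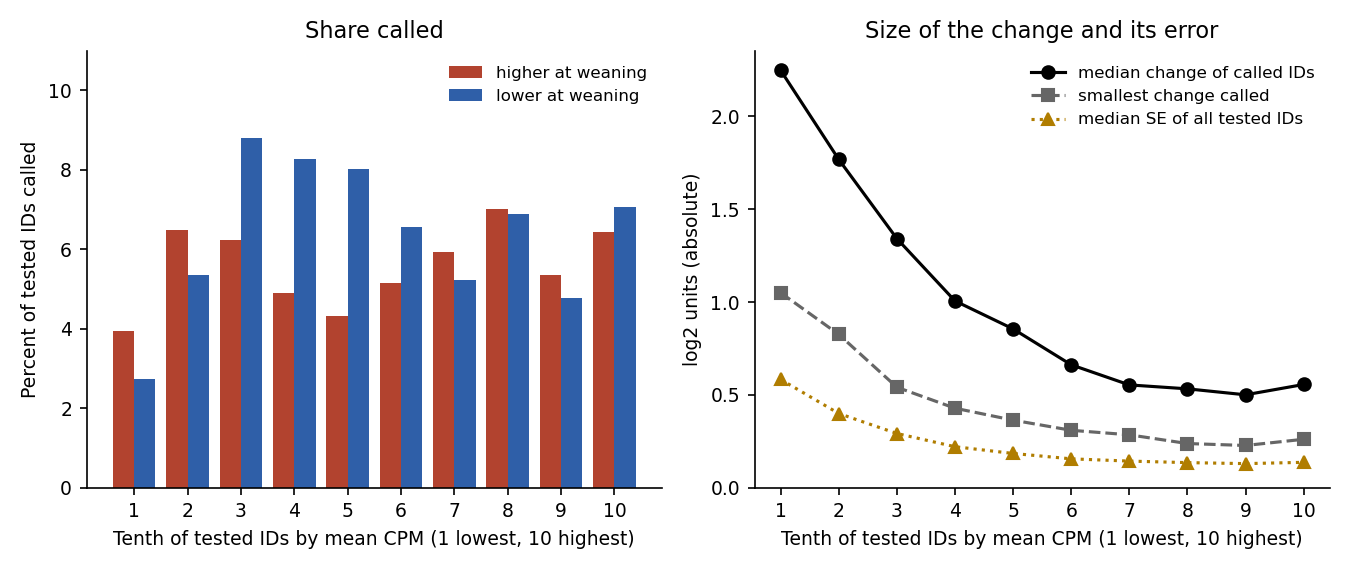
Left, the percent of tested IDs called higher or lower at weaning in each of 10 parts of the IDs by mean CPM; right, the median and the smallest absolute log2 change of the called IDs and the median SE of all tested IDs in the same parts. Falls outnumber rises most in the 3 parts from 3.45 to 21.96 CPM, and the median called change falls from 2.25 to 0.56 as the median SE falls from 0.58 to 0.14.

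Changes of at least 4-fold numbered 127 rises and 126 falls, and the sides differed in what lay at the lower age. At least 1 mean CPM remained at the lower age for 45 of the rises (at birth) and 72 of the falls (at weaning), and at least 10 CPM for 13 and 6. Under 10 counts in every library of the lower age were found for 32 rises and 27 falls. For the few IDs with no count at the lower age in any of the 6 calves, 4 rises and 1 fall, the fitted size depends on the fitting and is not given. Over all 27570 IDs, 3 had no count in any birth library and a count in every weaning library, and 1 had the reverse, with 1 to 2 counts per birth library.

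Both of the largest fitted falls ended at or near 0 counts, but they began differently (edgeR adjusted p = 0.0119 and 0.00530). In the first, calves 1 and 7 had 24.1 and 22.8 CPM at birth and the other 4 had 0 to 0.207 CPM, so its level at birth was that of 2 calves. No weaning calf had a count. In the second, all 6 birth calves carried the transcript, at 2.03 to 14.8 CPM, against 0 to 0.0749 CPM at weaning. Heat-stressed calves also ranged widely at birth, from 0.0613 to 14.5 CPM in the first and from 2.78 to 299.8 CPM in the second, and had at most 0.131 CPM in the first and 0 in the second at weaning. These 2 were singled out after their values were seen.

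The IDs with the most reads also moved many reads. In fold they changed about as much as tested IDs in general and more than the highest of the 10 parts by CPM. The 100 IDs with the most counts took 19.2% of all counts in the cooled calves. Their median absolute change was 0.25 on the log2 scale, against 0.25 over all tested IDs and 0.18 in the highest of the 10 parts by CPM. Of these, 6 rose and 13 fell, against 5.58% and 6.37% of all tested IDs, and 3 of the 19 changed by at least 2-fold. The ages did not overlap in 10 of the 100, against 2.43% of all tested IDs with weaning above birth and 3.03% with weaning below. Among the 10 IDs with the most counts, 4 were called in either direction. The share of counts in the top 100 was 19.4% ± 0.936 at birth and 18.95% ± 0.940 at weaning (SD, n = 6 each), a difference within the spread between calves (two-sided exact permutation p = 0.355, 0.532 after adjustment over 3 library measures).

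Counted in reads, a few IDs gave much of the change and many gave the rest. Mean CPM summed over the rising IDs grew by 30350, and 43 of the 876 IDs gave 50% of that growth and 378 gave 90%. The falling IDs lost 40012 CPM in all, of which 30 of the 1000 IDs gave 50% and 401 gave 90%. The 43 and 30 IDs had a median absolute change of 1.01 and 0.82 on the log2 scale, and the ages did not overlap in 18 of each, against 37.1% of all called rises and 44.3% of all called falls.

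Among the cooled calves, rising IDs held 4.74% ± 0.255 of the reads at birth and 7.77% ± 0.463 at weaning, and falling IDs held 10.2% ± 0.530 and 6.22% ± 0.435 (SD, n = 6 each). The IDs were chosen by the change in these same calves, so the shares describe the change and test nothing. For the rises, the birth calves lay between 4.36% and 5.13% and the weaning calves between 7.19% and 8.45%. For the falls, the birth calves lay between 9.45% and 11.03% and the weaning calves between 5.77% and 6.75%. The ages were apart on both measures. Calf 6 stood at the birth end of both, with the lowest share in rising IDs and the highest in falling IDs. Calf 19 had the highest weaning share in rising IDs, and calf 13 the lowest weaning share in falling IDs.

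The heat-stressed calves took no part in choosing these IDs beyond the shared count filter and estimate of the spread. The same 876 IDs took 4.95% ± 0.504 of their counts at birth and 7.03% ± 0.239 at weaning, and the same 1000 IDs took 9.73% ± 1.27 and 6.87% ± 0.520 (SD, n = 6 each). Rising IDs were apart between the ages in these calves too, with at most 5.78% at birth and at least 6.66% at weaning. Falling IDs overlapped, since heat-stressed calf 5 at birth, at 7.56%, lay below heat-stressed calf 31 at weaning, at 7.72%.

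**Figure D3:**
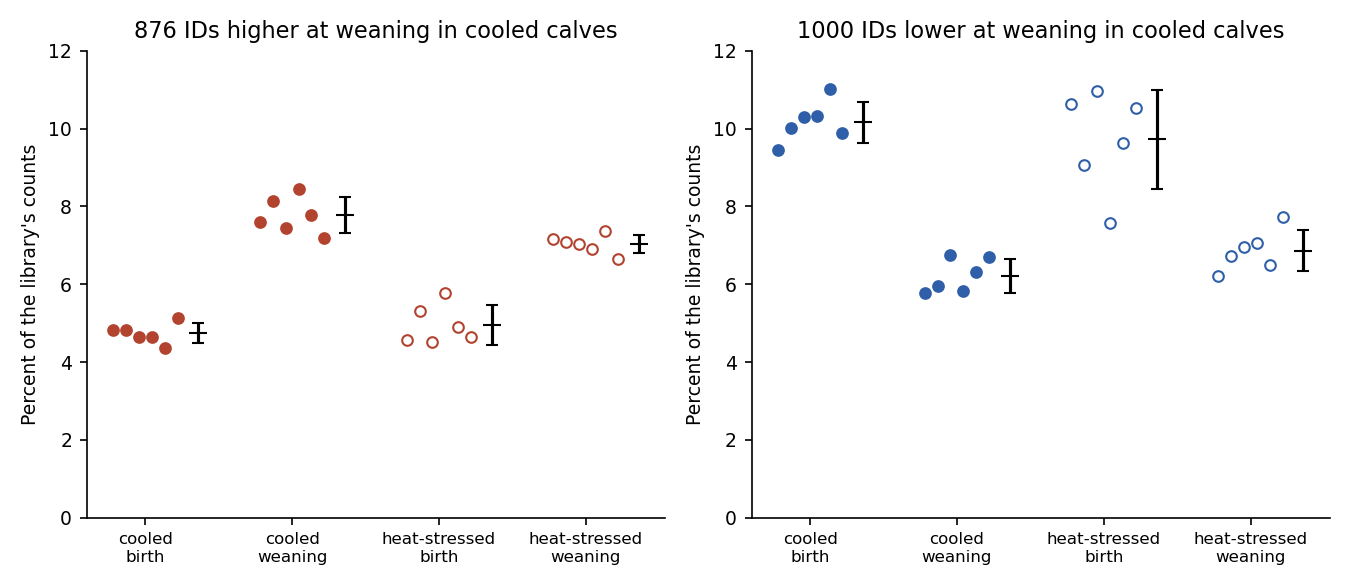
Percent of each library's counts in the IDs called higher (left) and lower (right) at weaning in cooled calves, 1 point per calf, with mean and SD of 6 calves at the side; filled points are cooled calves and open points heat-stressed calves. In cooled calves the ages do not overlap in either panel, with rising IDs at most 5.13% at birth and at least 7.19% at weaning.

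Separation of the ages was measured by comparing each birth calf with each weaning calf, which gives 36 pairs of calves per ID. In 381 IDs (2.43% of those tested) all 6 weaning calves lay above all 6 birth calves, and in 476 IDs (3.03%) all lay below. Of these, 325 and 443 were also called by the test. Seen from the other side, 37.1% of the 876 rises and 44.3% of the 1000 falls had no overlap between ages. At least 34 of the 36 pairs went in the called direction for 618 rises and 749 falls, and the least separated calls had 27 of 36 pairs, 2 IDs in each direction.

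Among the 325 rises and 443 falls that were called and had no overlap, the gap between the ages was usually narrow. The median ratio between the nearest birth and weaning calves was 1.13 for the rises and 1.13 for the falls, and it was under 1.1 for 141 and 177 IDs. A gap of at least 2-fold, so that even the nearest calves of different age differed by 2-fold, was found for 31 rises and 18 falls. For 2 further rises no birth calf had a count, so no ratio could be formed and they are not among the 31. These 31 had a median change of 2.92 and the 18 of 2.28 on the log2 scale. Most had few reads: the median level was 4.91 CPM for the 31 rises and 8.75 CPM for the 18 falls. Levels ran from 0.724 to 447 CPM for the rises and from 1.96 to 19.4 CPM for the falls. In heat-stressed calves, 21 of the 31 rises and 17 of the 18 falls were called in the same direction, against 2.65% and 3.66% of all tested IDs, and 28.9% and 35.8% of the rises and falls of cooled calves.

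Large rises separated the ages more often than small ones, and the largest falls did not. Of the rises under 1.5-fold 33.3% had no overlap, against 29.4% at 1.5- to 2-fold, 36.9% at 2- to 4-fold, 51.6% at 4- to 8-fold and 77.8% at 8-fold or more. For falls the share was 41.1%, 37.1%, 50.2% and 60.0% in the same classes and 31.2% at 8-fold or more, which were 5 of 16 IDs. Read level made less difference: the share of called IDs without overlap was 23.8% in the lowest of the 10 parts and 35.9% to 45.7% in the others.

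Full separation and a call did not always go together. No overlap was seen for 56 IDs with weaning above birth and 33 with weaning below birth that the test did not call, with adjusted p from 0.0508 to 0.436 and from 0.0505 to 0.228 in edgeR. Their median absolute difference was 0.43 and 0.39 on the log2 scale, less than that of the separated IDs that were called, at 1.01 and 0.95. One calf held over 50% of the summed CPM of the 12 calves in 6 of the rises and 3 of the falls.

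Of the 1108 called IDs that overlapped, 871 lost the overlap when 1 calf was set aside, and more than 1 calf could serve for some IDs. Calf 3 at birth did so for 249 IDs, of which 98 were rises and 151 were falls. Calf 20 at weaning did so for 145, calf 22 at weaning for 137 and calf 1 at birth for 122, while calf 6 at birth did so for 33. No other calf resolved the overlap of as many IDs as calf 3. With calf 3 left out and the libraries scaled anew, the IDs without overlap went from 381 to 569 higher and from 476 to 795 lower; fewer calves make such separation easier, and without each other calf in turn the counts ran from 395 to 563 and from 515 to 657.

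**Figure D4:**
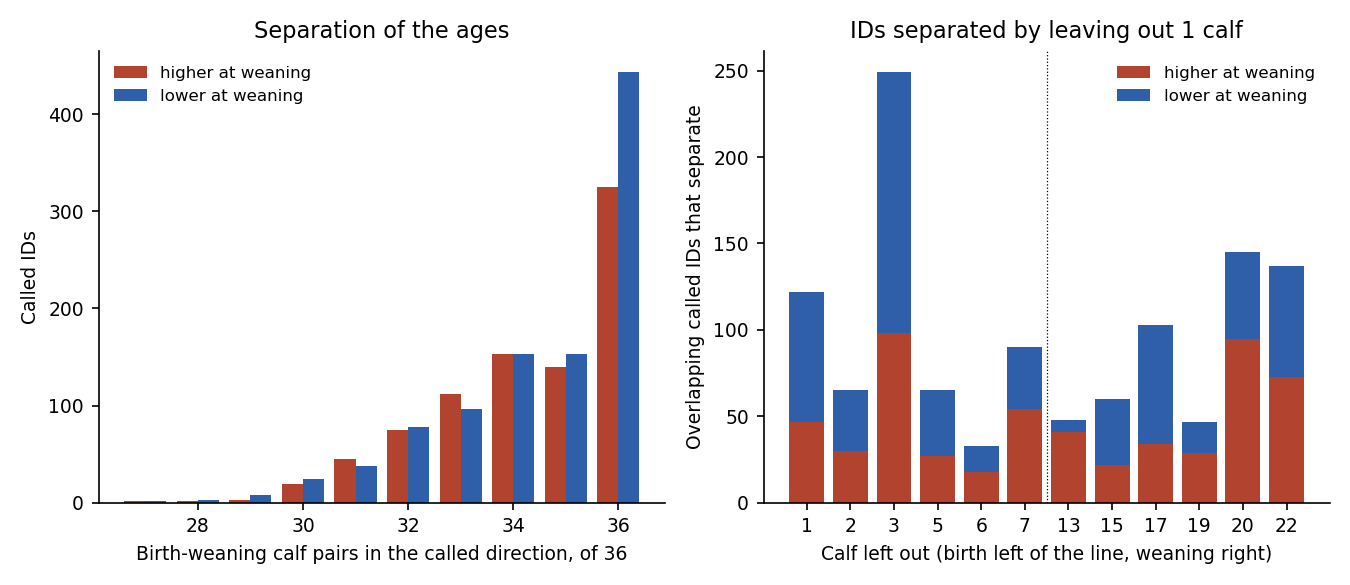
Left, called IDs by the number of the 36 birth-weaning pairs of cooled calves that went in the called direction; right, for each calf, the number of overlapping called IDs whose ages separate when that calf is set aside (rises and falls stacked). Complete separation, at 36 pairs, is the most frequent outcome with 325 rises and 443 falls, and calf 3 at birth has the highest bar with 249 IDs.

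Whole profiles of the 12 cooled calves gave the same 2 calves a place of their own. On the 2000 IDs with the highest variance of log2 CPM, the leading principal component carried 34.1% of the variance and parted the ages, with birth calves from -40.8 to -21.3 and weaning calves from 20.6 to 38.5. The second held 12.9%, and calves 3 and 20 scored 30.9 and 39.2 on it, against -20.2 to 10.8 for the other 10 calves. The third held 9.33%, with calf 3 at 38.97 and calf 20 at -25.5. What sets these calves apart was not tested.

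The calves also differed in how many IDs had any count, from 17461 to 18841. Calves 2 and 6 at birth and 13 and 20 at weaning had 17461 to 17710, and the other 8 had 18223 or more. Calf 20, with the fewest IDs, had 17060279 counts in all, and calf 7, with the most, had 15316502. The means were 18209 at birth and 18170 at weaning (two-sided exact permutation p = 0.883, 0.883 adjusted over 3 library measures), and total counts were 15762067 and 14429943 (p = 0.208, exact permutation test, 0.532 adjusted).

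Rising IDs did not have their highest level equally often in each weaning calf. Calf 19 was highest in 264 of the 876, calf 13 in 201, calf 20 in 162, calf 15 in 153, calf 22 in 55 and calf 17 in 41. Among the 1000 falling IDs the highest birth level was that of calf 6 in 260, of calf 2 in 172, of calf 7 in 170, of calf 3 in 163, of calf 5 in 134 and of calf 1 in 101. How often each calf was highest over all tested IDs was not counted, so it is not known whether these numbers are particular to the 2 lists. The spread within ages was similar for both lists: the median SD of log2 CPM was 0.35 at birth and 0.33 at weaning for rises, and 0.36 and 0.32 for falls. For all tested IDs it was 0.32 and 0.30, and 48.0% of them had the larger SD at weaning.

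The calls were then followed through the fits that left out 1 cooled calf at a time. Of the rises 440 (50.2%) and of the falls 593 (59.3%) were called in all 12 of these fits. IDs called in all 12 had a median absolute change of 1.08 for rises and 1.01 for falls, against 0.63 and 0.64 for the rest, and 57.5% and 61.6% of them had no overlap between ages, against 16.5% and 19.2% of the rest. Among rises the share called in all 12 went from 29.9% of those under 1.5-fold to 91.7% of those at 8-fold or more. For falls it was 36.4% under 1.5-fold, 80.9% at 4- to 8-fold and 68.8% at 8-fold or more. Without calf 6 at birth the test called the fewest rises, 588, and without calf 19 at weaning the fewest falls, 715, while without calf 3 it called 929 and 1149.

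ENSBTAG00000012330, the rise with the smallest p, was among the clearest separations. It measured 51.4, 76.3 and 81.3 CPM (lowest, median and highest of 6) at birth and 231, 287 and 534 CPM at weaning, and the nearest calves of different age differed 2.84-fold. Its log2 change was 2.20 ± 0.19 (SE; edgeR adjusted p = 2.97e-07), with a 95% interval from 1.81 to 2.60. All 12 fits without 1 calf called it.

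ENSBTAG00000008934 was the fall with the smallest p. At birth it measured 21.1, 33.2 and 36.8 CPM and at weaning 4.65, 7.74 and 9.08 CPM (lowest, median and highest of 6), so all birth calves lay above all weaning calves, the nearest by 2.33-fold. It fell by 2.13 ± 0.21 on the log2 scale (SE; edgeR adjusted p = 1.07e-06), and all 12 fits without 1 calf called it. Heat-stressed calves had 20.99 ± 4.67 CPM at birth and 6.92 ± 1.98 CPM at weaning (SD, n = 6 each), a fall of 1.60 ± 0.21 on the log2 scale (edgeR adjusted p = 0.000138). The changes in cooled and heat-stressed calves did not differ past the threshold (edgeR interaction adjusted p = 0.908).

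The rise that moved the most reads was ENSBTAG00000006769, which ranked 4 by mean CPM among the tested IDs. It measured 4977, 6160 and 9400 CPM at birth and 6338, 9034 and 14506 CPM at weaning (lowest, median and highest of 6), and gave 9.85% of the summed growth of the rising IDs. The ages overlapped: calf 7 at birth was above 4 of the 6 weaning calves, and 31 of the 36 pairs went in the called direction. Its log2 change was 0.54 ± 0.17 (SE; edgeR adjusted p = 0.0363), and 5 of the 12 fits without 1 calf called it, with adjusted p up to 0.125 without calf 20. It was also not called when the 12 cooled calves were fitted alone (edgeR adjusted p = 0.0843). In heat-stressed calves, where the ages did not overlap, it went from 6040 ± 270 to 9803 ± 1468 CPM (SD, n = 6 each; edgeR adjusted p = 0.0131).

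ENSBTAG00000014269 was the fall that moved the most reads and ranked 8 by mean CPM. At birth it measured 5436, 7118 and 9330 CPM and at weaning 3532, 4031 and 5541 CPM (lowest, median and highest of 6). Only calf 7 at birth and calf 22 at weaning were out of order, so 35 of 36 pairs went in the called direction. The change was -0.72 ± 0.20 on the log2 scale (SE; edgeR adjusted p = 0.0202), and 11 of the 12 fits without 1 calf called it, the exception being the fit without calf 19 (adjusted p = 0.0531). In heat-stressed calves the change was -0.60 ± 0.20 and did not pass (edgeR adjusted p = 0.075).

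**Figure D5:**
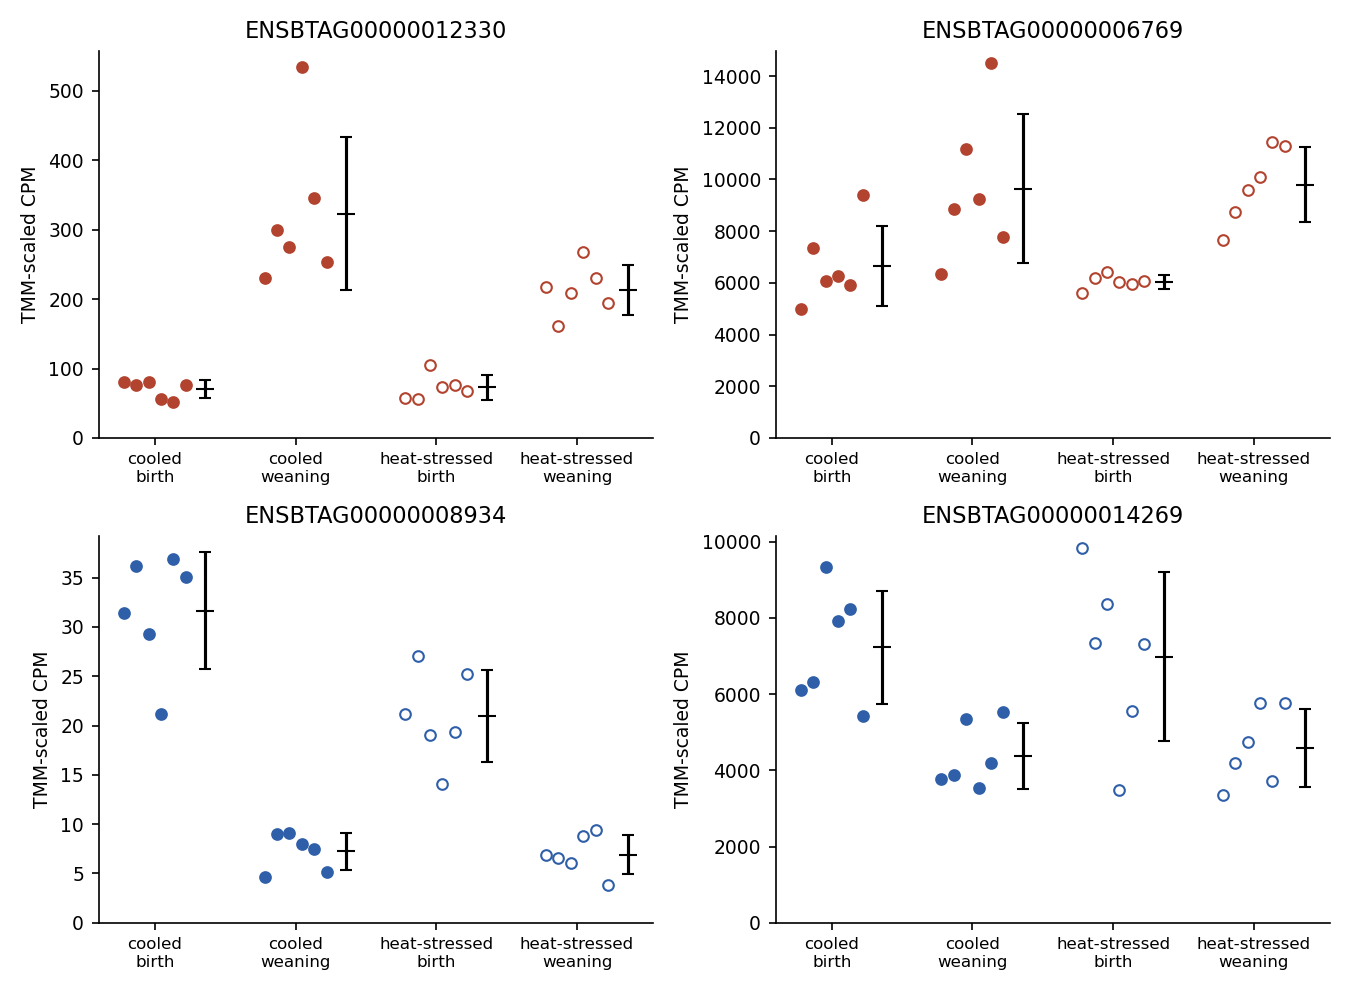
TMM-scaled CPM of the 4 IDs in each calf, with mean and SD of 6 calves at the side; filled points are cooled calves and open points heat-stressed calves, and each vertical axis starts at 0. The IDs with the smallest p (left) separate the ages completely in cooled calves, with 81.3 CPM at most at birth against 231 CPM or more at weaning in the upper panel, while the IDs that moved the most reads (right) overlap.

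The changes of cooled calves were set beside those of heat-stressed calves by size. In heat-stressed calves 416 IDs rose (2.65% of those tested) and 575 fell (3.66%). They shared 253 rises, 28.9% of the cooled and 60.8% of the heat-stressed list, and 358 falls, 35.8% and 62.3% of the lists. Of the rises in cooled calves, 23.4% of those under 1.5-fold were called in heat-stressed calves, 31.3% at 1.5- to 2-fold, 27.0% at 2- to 4-fold, 36.3% at 4- to 8-fold and 52.8% at 8-fold or more. For falls the share was 17.1%, 26.1%, 48.8%, 73.6% and 62.5% in the same classes. The share was lowest in the smallest class on both sides, and it did not climb at every step.

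The heat-stressed calves showed a smaller median change in each size class. For rises of 2- to 4-fold the median was 1.37 in cooled and 0.69 in heat-stressed calves on the log2 scale, and for falls of that size it was -1.43 and -0.98. The IDs and their classes were chosen on the cooled calves, which tends by itself to make the cooled values the larger, so no difference between treatments is read from these medians. The test of that difference called 0 of 15693 IDs (0% of those tested) in edgeR, with 872 at an unadjusted p under 0.05.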

How the data were processed

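The values deposited by the authors are raw read counts per Ensembl gene ID, 1 table per calf. Per the submitters' processing notes, reads were handled with HTSeq, HISAT2, Trim Galore 0.4.4 and FastQC 0.11.7 on build ARS-UCD1.2; strand setting and annotation release are not given in the sources used here, so reads of overlapping, antisense or near-identical genes could be pooled or split. The reference table held an Ensembl ID for 0 genes, so no ID was named, and the gene lists and cell type markers drawn up for symbols were not used. IDs to print were, in each direction, the called ID with the smallest p and the one with the largest change in mean CPM.

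All 24 libraries entered 1 edgeR 4.0.16 quasi-likelihood fit (R 4.3.3; filterByExpr with minimum count 10 and minimum total 15, TMM scaling, robust dispersion). This left 15693 of 27570 IDs, and 5702 had no count in the 12 cooled calves. Weaning was compared with birth in cooled calves, two-sided, at an adjusted p of 0.05; SE is the change divided by the square root of F. Log2 CPM used a prior count of 2. The fit was also run on counts simulated from its own estimates with known changes planted, and no result here rests on that run. DESeq2 1.42.0, limma 3.58.1, sva 3.50.0, other scaling, filters, depth and left-out calves were alternatives. No 2 cooled libraries agreed within sampling noise (chi-square per degree of freedom at least 23 over 66 pairs). Labels give no batch. Members and measures were chosen with earlier results of these data known.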

Additional observations from a re-analysis of the deposited data

Results flagged for a closer look

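Library measures, 3 principal components and 4 IDs at each age gave 24 groups of 6 values. In these, 2 values passed Dixon's test for a value far from its group. Chance sets apart about 1 in 20 groups, so 2 of 24 is not far from chance. That rate need not hold for the principal components, which were computed from these same calves. Calf 3 at birth scored 38.97 on the third principal component of the cooled calves, where the other birth calves scored from -14.3 to -1.34. Calf 17 at weaning had 20.8% of its counts in the 100 IDs with the most counts, where the other weaning calves had 18.2% to 19.01%.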

How the results depend on the processing

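Under 21 alternatives the count of 876 rises ranged from 588 to 1324 and that of 1000 falls from 715 to 1351; the only value beyond 1.5 times was 1324 rises, with limma-voom sample quality weights. DESeq2 also called 875 of the 876 and 998 of the 1000, and limma-voom 795 and 888, both on all 24 calves. Fitted on the 12 cooled calves alone, with 14895 IDs tested, edgeR also called 709 of the 876 and 855 of the 1000. Counts beyond 2-fold depended most on the tool. Against 59 and 60 in edgeR, DESeq2 gave 44 and 36, limma-voom 11 and 1, and limma-voom with quality weights 14 and 2. The tools do not test against the 2-fold threshold in the same way, and the cause of the difference was not tested. Leaving out 1 calf at a time gave 29 to 62 and 15 to 77. IDs without overlap ranged from 395 to 569 and from 515 to 795 over the same calves, where fewer calves were compared. Other scaling, filters or depth gave 319 to 372 IDs without overlap higher and 497 to 507 lower, against 381 and 476. The shares of counts in called IDs changed by 3.03 and -3.95 percentage points, by 2.95 and -3.53 without the 10 IDs with the most counts, and by 3.04 and -4.00 on TMM-scaled CPM. The log2 change of each printed ID kept its sign under all 21 alternatives, but ENSBTAG00000006769 lost its call under 8 of them and ENSBTAG00000014269 under 1. No paired analysis was possible because the calves at birth and at weaning share no number in the labels. The lowest of the 10 parts by read level had a median of 11 counts per library, and the smallest change called there was 1.05 on the log2 scale.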
